A study of Mus musculus with 3 samples.

Results

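The *Sfrp4* *Spon2* FAPs are fibro-adipogenic progenitors (FAPs) of the mouse diaphragm whose summed signal for *Sfrp4*, *Spon2*, *Slc6a2* and *Vit* was higher than that of 6 other sets of 4 FAP genes. A cell counted as a FAP when it held at least 1 UMI (a unique molecular identifier, which marks 1 captured RNA molecule) of *Pdgfra*, at least 3 of *Dcn*, and 0 of *Ptprc*, *Pecam1* and *Pax7*. Each set's genes were standardized over FAPs and averaged, and a cell was assigned to its highest set. The rule kept 717 cells of 5808 FAPs and of 12275 barcodes in all. The levels of the 4 genes in these cells therefore follow from the rule, and they are given below as a description.

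The study asked how obesity from a high-fat diet, and loss of thrombospondin-1, alter the stromal cells of the breathing muscle. It deposited 3 single-cell RNA-Seq libraries of mononuclear cells from the costal diaphragm of male mice. WT CD held C57Bl/6J mice on control diet, and WT HFD held the same strain on high-fat diet with 45% of calories from lipid. KO HFD held mice of the strain B6.129S2-Thbs1tm1Hyn/J, which lack *Thbs1* in the whole body, on the same high-fat diet. Diets began at 2 months of age and lasted 6 months in all groups, and each library pooled 2 mice. The tissue was digested with collagenase II and dead cells stained with DAPI were removed by flow cytometry. With 1 library per group there was no replicate and no test between groups, so the ranges given in square brackets are 95% intervals for counting error only and do not cover differences between mice.

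FAPs are mesenchymal cells that lie between muscle fibers, support muscle stem cells, and can become adipocytes or matrix-depositing fibroblasts. *Sfrp4* encodes a secreted frizzled-related protein that binds Wnt ligands. *Spon2* encodes spondin 2, a secreted matrix protein. *Slc6a2* encodes the noradrenaline transporter, known mainly from sympathetic neurons, and *Vit* encodes vitrin, a matrix protein with von Willebrand factor A domains. Wnt signaling depends on the balance of secreted ligands such as *Wnt4*, enhancers such as R-spondins, and secreted antagonists of the Sfrp and Dkk families.

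There were 245 *Sfrp4* *Spon2* FAPs in WT CD, 194 in WT HFD and 278 in KO HFD, with summed depths of 2416291, 2004225 and 2662986 UMIs. Median depth per cell was 9234 UMIs in WT CD, 9805.5 in WT HFD and 9216.5 in KO HFD, against 8478, 9176 and 8341 in the other FAPs of the same libraries. The libraries shared few cell barcodes, with 7 between WT CD and WT HFD, 2 between WT HFD and KO HFD, and 7 between WT CD and KO HFD, of which 1 was an *Sfrp4* *Spon2* FAP in both. The cells made up 12.7% [11.2 to 14.3] of FAPs in WT CD, 10.9% [9.49 to 12.4] in WT HFD and 13.2% [11.8 to 14.8] in KO HFD (exact binomial intervals). Of the 28 genes in the 7 sets, 8 differed by 1.5-fold or more between libraries over all FAPs, *Slc6a2* among them, so these shares move with the genes that define them. When those 8 genes were left out of the sets, the shares were 14.0%, 12.1% and 12.6%, and when genes were standardized within each library they were 12.3%, 12.2% and 12.4%.

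Of 6 FAP markers, *Dcn* and *Pdgfra* were required by the rule, and *Dcn* was at 16534 CPM (UMIs per 1000000 UMIs of the cells) in WT CD, 12892 in WT HFD and 14223 in KO HFD. The 4 markers that the rule did not use were also found in each library. *Lum*, a proteoglycan gene, was at 1877, 1457 and 1682 CPM, *Ly6a* (Sca-1) at 705, 1258 and 969, *Pdgfrb* at 135, 124 and 143 and *Osr1* at 99.3, 106 and 109. *Sfrp4*, on chromosome 13 (19623104 to 19632994, GRCm38), was at 531 CPM in WT CD, 676 in WT HFD and 567 in KO HFD, against 94.4, 98.7 and 87.2 CPM in the other FAPs. *Spon2*, on chromosome 5 (33198184 to 33218455), stood at 380, 238 and 312 CPM, against 62.6, 52.5 and 46.6. *Slc6a2*, on chromosome 8 (92960079 to 93001667), stood at 113, 138 and 184 CPM, against 24.1, 28.1 and 47.0. The level of *Vit*, on chromosome 17 (78508064 to 78627408), was 122, 116 and 139 CPM, against 49.7, 39.3 and 44.1. The gene whose level was closest to that of other FAPs was *Vit*. Single sets of FAPs stood closer than the other FAPs pooled. As means over the 3 libraries, *Sfrp4* was at 591 CPM here and 257 in the set of *Dio2*, *Pthlh*, *Col8a1* and *Aspn*. *Spon2* was at 310 here and 104 in the set of *Fmod*, *Sfrp2*, *Tnmd* and *Thbs2*. In the set of *Agt*, *Ptx3*, *Has1* and *Cyp1b1*, *Slc6a2* was at 44.8 against 145 here, and *Vit* at 94.4 against 126.

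**Figure D1:**
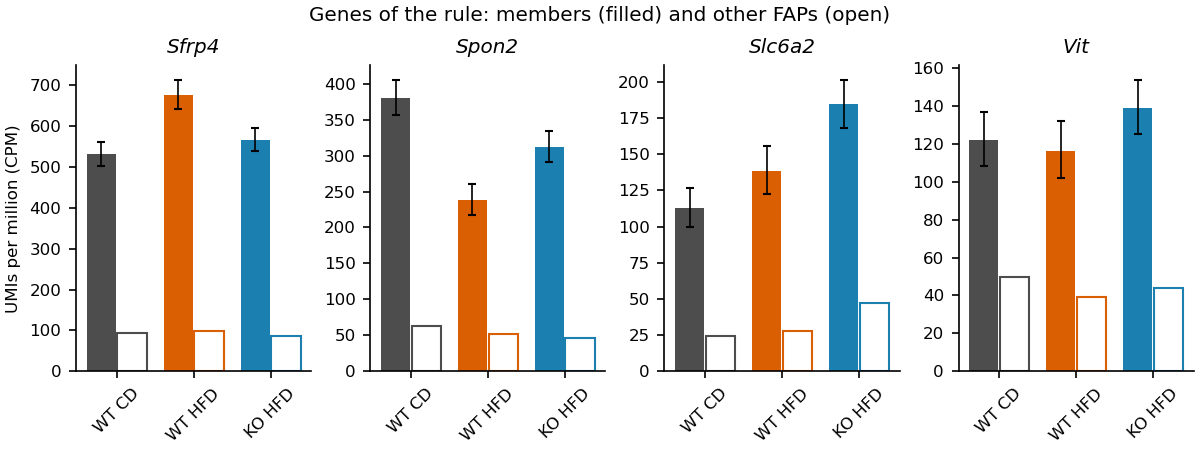
CPM of the 4 genes that defined the cells, by library. Filled bars are *Sfrp4* *Spon2* FAPs with exact Poisson intervals for counting error, open bars are all other FAPs, and *Sfrp4* reached 676 CPM in WT HFD against 98.7 in the other FAPs.

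Few cells carried the whole signature. All 4 genes were found in 74 cells (10.3%), 3 genes in 238, 2 in 292 and 1 in 113. Median depth climbed with the number of genes found, from 7450 UMIs in cells with 1 gene to 11881.5 in cells with all 4. Among the other FAPs, 2135 of 5091 had none of the 4 genes and 14 had all of them. *Spon2* was found in 71.0% of the cells [67.5 to 74.3], *Slc6a2* in 59.8% [56.1 to 63.4], *Sfrp4* in 53.7% [49.97 to 57.39] and *Vit* in 53.6% [49.8 to 57.3]. In macrophages of the same libraries, which had a median of 10505.5 UMIs, *Sfrp4* was found in 0.0967% of 1034 cells and *Spon2* in 0.484%. After every cell was thinned to 3000 UMIs, which left out 7 of the 717, the shares were 44.8% for *Spon2*, 35.4% for *Sfrp4*, 31.0% for *Slc6a2* and 27.2% for *Vit*. *Sfrp4* and *Spon2* were found together in 41.4% of cells, against 38.1% for the product of their separate shares, whereas *Sfrp4* and *Vit* met in 25.7% against 28.8%, and *Slc6a2* and *Vit* in 28.3% against 32.04%. Because the rule averages the 4 genes, a cell low in 1 of them had to be high in another, and these pairings carry that selection.

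The edge of the population was soft. The set score exceeded the next highest set by a median of 0.353 standardized units, and 140 cells (19.5%) led by less than 0.1. A further 139 FAPs fell short of membership by less than 0.1. The 3 cells just inside scored 0.984, 0.0912 and 0.601, against next scores of 0.983, 0.0888 and 0.599. The 3 just outside scored 0.893, 0.0749 and 0.270, against highest scores of 0.893, 0.0755 and 0.272. The runner-up was most often the set of *Gdf10*, *Rbp4*, *Penk* and *Apod* (171 cells) and least often that of *Cxcl14*, *Mme*, *Hsd11b1* and *Kcnk2* (42 cells).

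Apart from the genes of the sets, these FAPs resembled other FAPs closely. The mean profile over 2760 genes correlated best with those of the *Gdf10* *Rbp4* *Penk* *Apod* set (Pearson r = 0.971 across genes) and the *Dio2* *Pthlh* *Col8a1* *Aspn* set (r = 0.970), and least with the *Cxcl14* set (r = 0.946). Genes are not independent replicates, and the sets share their libraries. Only 3 of 2728 genes (0.110%) were at least 2-fold higher than in the other FAPs in all 3 libraries, and 7 of 2765 (0.253%) were at least 2-fold lower. At 1.5-fold the counts were 25 (0.867%) and 33 (1.15%) of 2882. The cells were chosen from the same counts, so these differences describe the population and were not tested.

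Several secreted Wnt pathway genes were above the other FAPs. *Wnt4*, a Wnt ligand, stood at 77.0 CPM in WT CD, 19.0 in WT HFD and 58.2 in KO HFD, against 22.1, 12.1 and 16.6 CPM in the other FAPs. The WT HFD library was the low one. *Wnt4* UMIs were found in 26.1% of the cells in WT CD, 10.3% in WT HFD and 19.8% in KO HFD, but also in 6.29% of macrophages, which should lack the gene and stood at 5.58 CPM. *Rspo1*, an R-spondin that strengthens Wnt signals, stood at 133, 74.3 and 101 CPM, against 49.5, 38.9 and 49.6, and was found in 1.06% of macrophages. *Dkk3*, a member of the Dickkopf family, stood at 82.8, 34.9 and 46.6 CPM, against 19.3, 15.2 and 12.9. *Dkk2*, a Dickkopf antagonist of Wnt co-receptors, stood at 56.7, 70.4 and 34.2 CPM, against 32.5, 34.7 and 22.3. Of the Wnt ligands and enhancers with enough signal to compare, 2 of 4 were 1.5-fold higher in all 3 libraries (0.867% of all genes were), *Wnt5a* and *Wnt11* being the others. Of the genes outside the sets that were listed as secreted inhibitors, 2 of 3 were, *Dkk3* and *Dkk2*, with *Sfrp1* at a mean log2 ratio of -0.38. None of the 4 Wnt receptors measured, *Lrp6*, *Fzd2*, *Ryk* and *Fzd4*, passed that fold in either direction, nor did *Twist1*, the only target gene measured. *Wnt4*, *Rspo1*, *Dkk3* and *Dkk2* reached the mean of 50 CPM needed for comparison in the *Sfrp4* *Spon2* FAPs but not in the other FAPs pooled, so these counts are a description.

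Other genes ranked high against the other FAPs had varied roles. Of 13 matrix proteases and inhibitors 1 was 1.5-fold higher in all 3 libraries (0.867% of all genes were) and 1, *Adamts5*, was lower (1.15% of all genes), with mean log2 ratios of 1.22 for *Timp1* and -0.79 for *Adamts5*. *Timp1*, whose product blocks metalloproteinases, was at 86.9 CPM in WT CD, 247 in WT HFD and 147 in KO HFD, against 37.9, 87.0 and 76.4 in the other FAPs. *Mmp3*, which encodes the metalloproteinase stromelysin 1, stood at 95.2, 122 and 93.5 CPM, against 68.7, 44.9 and 30.4, so that its log2 ratio in WT CD was only 0.47. *Mmp3* rested on few cells, since 1 cell held 110 of its 245 UMIs in WT HFD and 1 cell held 113 of 249 in KO HFD. *Lgals3*, which encodes the glycan-binding protein galectin 3, stood at 50.9, 48.4 and 72.5 CPM, against 13.6, 14.0 and 17.8. Its mean log2 ratio of 1.91 was the highest among genes that no single cell dominated. *S100a4*, a calcium-binding protein, stood at 68.3, 185 and 101 CPM, against 44.9, 48.5 and 46.9, with 126 of 371 UMIs in 1 cell of WT HFD. *Tgfb2*, a TGF-β ligand, stood at 148, 93.3 and 106 CPM, against 51.5, 53.8 and 44.3. *Col6a5*, a collagen VI chain, stood at 313, 239 and 594 CPM, against 137, 125 and 226. The caveolar genes *Cav1* and *Cavin2* had mean log2 ratios of 1.17 and 0.81, and *Clu*, which encodes the secreted chaperone clusterin, had 1.12.

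The bases upstream of *Timp1* and *Mmp3* are shown because these 2 genes form a protease and inhibitor pair with a high mean ratio over the other FAPs, although *Mmp3* was under 1.5-fold in WT CD, and because both the RefSeq and GENCODE starts fall at the same base. Sequences are from RefSeq (GRCm38.p6, plus strand), cover the 250 bases before the annotated start, and read 5′ to 3′. Capitals mark matches on either strand to any of 4 strings that do not contain each other. The first was TGACTCA, a string bound by factors of the AP-1 family. The second was AGATAA, known from factors of the GATA family. The third was CTTTGA, known from the TCF and LEF effectors of Wnt signaling. The last was TATAAA, the core of many promoters with a TATA box. Promoter entries matched 17 of 24 genes looked up, and *Sfrp4*, *Spon2*, *Slc6a2* and *Vit* were not among them.
*Timp1* (chrX:20869916-20870165): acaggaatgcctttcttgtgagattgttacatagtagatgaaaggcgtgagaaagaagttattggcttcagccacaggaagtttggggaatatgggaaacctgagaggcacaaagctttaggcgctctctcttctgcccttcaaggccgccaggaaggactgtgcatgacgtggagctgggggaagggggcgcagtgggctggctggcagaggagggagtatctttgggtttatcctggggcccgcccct
*Mmp3* (chr9:7445572-7445821): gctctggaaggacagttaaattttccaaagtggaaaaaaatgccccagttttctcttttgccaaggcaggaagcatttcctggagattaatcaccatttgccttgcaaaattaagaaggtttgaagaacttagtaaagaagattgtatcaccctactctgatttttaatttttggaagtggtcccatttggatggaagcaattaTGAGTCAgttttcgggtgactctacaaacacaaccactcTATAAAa
The *Mmp3* window held the first string, on the opposite strand, from 46 bases before the start, and the last string from 7 bases before it. The *Timp1* window held none of the 4. Over 32536 RefSeq windows of the same length, the first string was in 4.45%, the second in 9.97%, the third in 13.9% and the last in 12.3%. A match is a string of letters and not evidence that a factor binds there.

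On the low side, the cells had less of some genes than the other FAPs pooled, although single sets of FAPs were as low for several of them. *Ccl11*, the eosinophil attractant eotaxin, stood at 96.8, 152 and 173 CPM, against 389, 377 and 389 in the other FAPs. *Vtn*, which encodes vitronectin, stood at 22.8, 28.9 and 36.8 CPM, against 92.6, 70.7 and 110. *Bmp4*, a bone morphogenetic protein, stood at 68.7, 60.9 and 57.5 CPM, against 132, 146 and 160, and *Thy1*, a surface glycoprotein, at 24.4, 26.4 and 16.5 CPM, against 60.3, 75.0 and 46.6. *Pgf*, *Lifr*, *Gadd45a*, *Gask1b* and *D630033O11Rik* had mean log2 ratios from -2.16 to -1.13. As means over the 3 libraries, *Ccl11* was at 141 CPM here but at 29.7 in the *Fmod* *Sfrp2* *Tnmd* *Thbs2* set, and *Lifr* at 33.8 and 17.8. *Thy1* was at 22.5 CPM here, 11.7 in the *Fmod* set and 24.8 in the *Gdf10* set, and *Pgf* at 22.1, 16.0 and 21.8. *Vtn*, *Bmp4* and *Gadd45a* had their lowest mean here among the 7 sets. *Igkc*, an immunoglobulin light chain of plasma cells, was also lower, at 48.4, 1.497 and 6.38 CPM, against 2190, 2.67 and 504, and it is no FAP transcript. *Hbb-bs*, a hemoglobin chain, headed the ranking on the high side only because 1 cell in WT HFD held 484 of 485 UMIs.

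**Figure D2:**
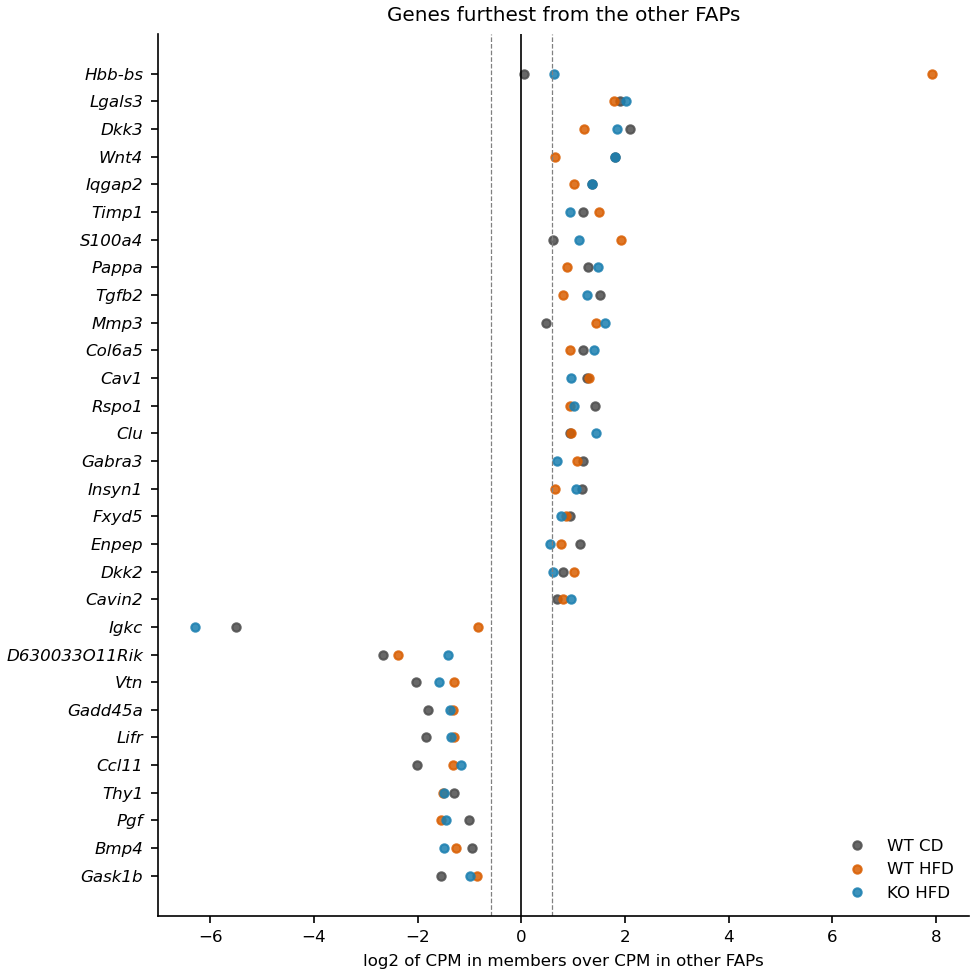
The log2 ratio of CPM in *Sfrp4* *Spon2* FAPs over all other FAPs, within each library, for the 20 genes with the highest and 10 with the lowest mean ratio. Dashed lines mark 1.5-fold. *Lgals3* lies near 2 in each library, *Wnt4* is lower in WT HFD than in the other libraries, and *Hbb-bs* is far out only in WT HFD, where 1 cell held it.

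Several of these genes were as high or higher in another set of FAPs. As means over the 3 libraries, *Dkk3* was at 54.8 CPM here and 55.0 in the *Fmod* *Sfrp2* *Tnmd* *Thbs2* set, and *Clu* was at 122 and 123 CPM in these sets. *Mmp3* was higher in the *Fmod* set (125 CPM against 104), as were *Dkk2* (90.8 against 53.7) and *Gabra3*, a GABA receptor subunit (80.7 against 58.6). *Col6a5* was higher in the *Agt* *Ptx3* *Has1* *Cyp1b1* set, at 477 CPM against 382. *Lgals3*, *Wnt4*, *Timp1*, *S100a4*, *Tgfb2*, *Cav1* and *Rspo1* had their highest mean here among the 7 sets, with *Rspo1* at 103 CPM against 85.1 in the *Fmod* set. Against the 2 most similar sets within each library, *Lgals3* was higher in all 6 comparisons, by log2 ratios from 1.12 to 3.39. *Wnt4* was higher in all 6 too, but its ratio over the *Gdf10* set in WT HFD was only 0.13. For *S100a4* the log2 ratio over the *Dio2* set in WT CD was -0.20.

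**Figure D3:**
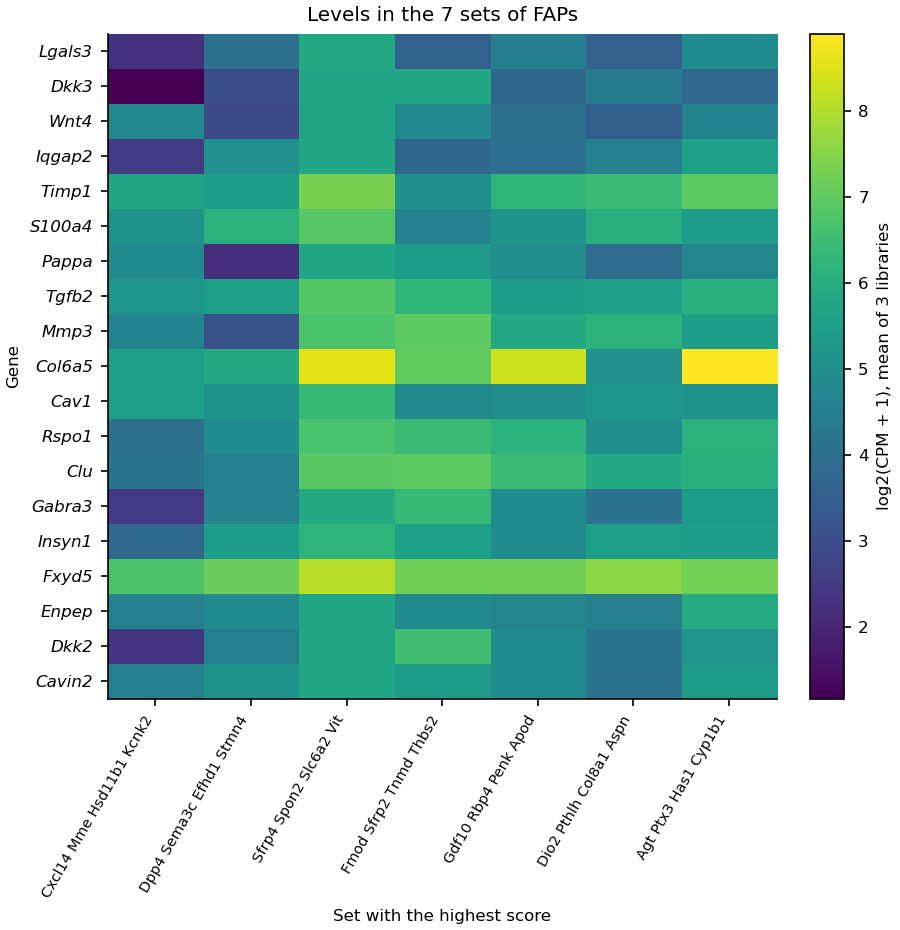
Mean level over the 3 libraries, as log2(CPM + 1), of the genes ranked highest in *Sfrp4* *Spon2* FAPs (*Hbb-bs* left out) in each of the 7 sets of FAPs. *Lgals3*, *Wnt4* and *Timp1* are brightest in the *Sfrp4* column, *Dkk3* and *Clu* are alike in the *Fmod* column, and *Col6a5* is brightest in the *Agt* column.

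The median gene stood at a log2 ratio of -0.02 to the other FAPs over 2882 genes. Among 14 collagens outside the sets, none was 1.5-fold higher or lower in all 3 libraries, and the median log2 ratio was 0.25, from *Col3a1* at 0.59 to *Col5a3* at -0.29. None of 16 elastic fibre genes (median 0.09) and none of 6 small leucine-rich proteoglycans (median -0.12) passed that fold either. Of 13 TGF-β pathway genes *Tgfb2* was the 1 that was higher (0.867% of all genes were), and *Thbs1* had a mean log2 ratio of -0.87. Of 7 interferon response genes 3 were 1.5-fold lower in all 3 libraries, against 1.15% of all genes. They were *Irf1*, *Irgm1* and *Iigp1*, at mean log2 ratios of -0.77, -0.87 and -0.96. *Irgm1* reached the mean of 50 CPM needed for comparison only in the other FAPs, so this count is a description. The median of the list was -0.44, and *Ifi27l2a* went the other way at 0.57. *Isg15*, *Psmb8* and *Bst2* were at -0.44, -0.30 and -0.18. Among 10 chemokines and cytokines only *Ccl11* was lower in all 3 libraries, with *Ccl2* at a mean of -0.81 and *Cxcl10* at -0.94. None of 13 immediate early genes and none of 11 heat shock genes passed the fold, with medians of -0.26 and -0.12.

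The cells were mixed. Clustering by k-means on variable genes, with all 28 set genes left out, divided them into 4 subgroups of 302, 182, 123 and 110 cells. The number 4 was chosen after the data were seen. With 3 clusters, the cluster that best matched each subgroup held 97.0%, 61.5%, 99.2% and 93.6% of its cells, and subgroups 2 and 4 fell together. With 5 clusters the shares were 91.7%, 84.1%, 91.9% and 100%. The genes that separate clusters were used to form them and are listed only to describe them.

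Subgroup 1 was led by *Ccl11* (299 CPM against 32.9 in the rest of the cells), *Adamtsl3*, *Opcml* and *Lifr*, and it had the most *Vit*, at 180 CPM. Subgroup 2 was led by *Necab1*, *Fibin*, *Thbs4* and *Col12a1*, with *Thbs4* (thrombospondin 4) at 2241 CPM against 532. Its *Sfrp4* level was 882 CPM and its *Vit* level 67.2. Subgroup 3 was led by *Pianp*, *Moxd1*, *Wnt4*, *Lgals3*, *S100a4* and *Cd109*. It had *Sfrp4* at 1002 CPM and *Spon2* at 509 CPM, and its cells were deeper, with a median of 12565 UMIs. Subgroup 4 was led by *Igfbp3*, *Alkal2*, *Plagl1* and *Adm*. It had *Slc6a2* at 269 CPM but *Sfrp4* at 125 CPM. Stress and early-response genes were also high there, with *Fos* at 6766 CPM, against 2445 to 4281 in the other subgroups, and *Hspa1a* at 428 CPM, against 143 to 186. *Slc6a2* was highest in subgroup 4 and *Vit* in subgroup 1 in each library. *Sfrp4* and *Spon2* were highest in subgroup 3 when the libraries were pooled, but not in each library. *Sfrp4* in WT CD was at 906 CPM in subgroup 2 and 617 in subgroup 3, and *Spon2* was at 501 and 499 CPM in WT CD and at 345 and 311 in WT HFD.

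**Figure D4:**
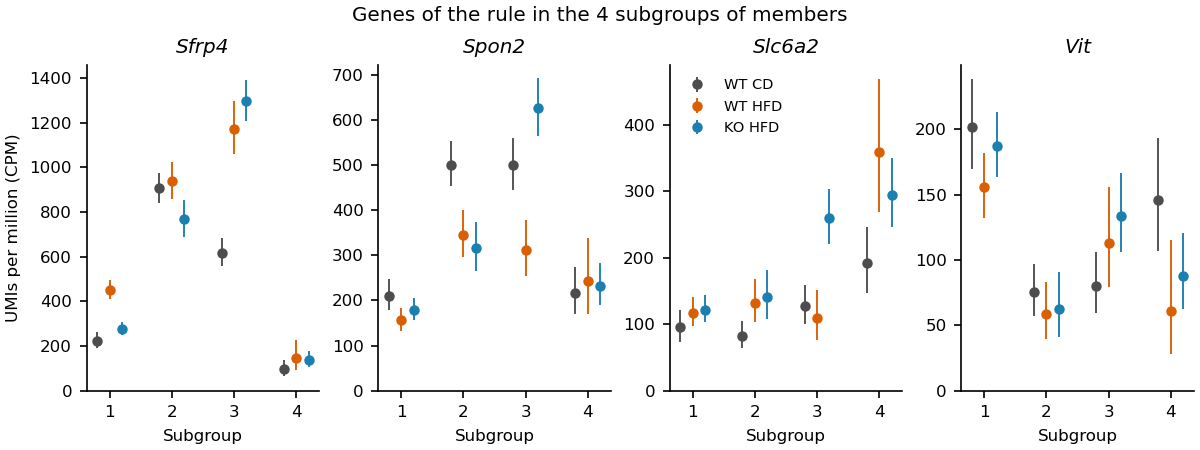
CPM of the 4 genes that defined the cells in each of their 4 subgroups, by library, with exact Poisson intervals for counting error. *Sfrp4* is lowest in subgroup 4 in all 3 libraries, where *Slc6a2* is highest, and *Vit* is highest in subgroup 1.

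Many of the genes that set the whole population apart were those of subgroup 3. *Wnt4* was at 182 CPM in subgroup 3 and between 10.7 and 46.6 CPM in the other subgroups, *Lgals3* at 196 against 5.55 to 31.2, and *Timp1* at 410 against 14.4 to 117. *Tgfb2* (280 CPM), *Rspo1* (232), *Dkk3* (146), *Clu* (344) and *Col6a5* (921) were also highest there, whereas *Mmp3* was at 190 CPM in subgroup 2 and 213 in subgroup 4 but 71.3 in subgroup 3. By library, *Mmp3* in subgroup 4 was at 89.9 CPM in WT CD, 752 in WT HFD and 121 in KO HFD. In subgroup 2 it was at 152, 129 and 336 CPM. Most *Mmp3* UMIs in subgroup 4 of WT HFD and in subgroup 2 of KO HFD lay in 1 cell each. *Thbs1* was at 23.3 CPM in subgroup 3 and between 126 and 241 CPM in the others. Subgroup 3 also held more *Wt1* (145 CPM), *Upk3b* (25.9), *Acta2* (55.1) and *Msln* (3.89) than subgroup 1, where these were at 63.8, 0.0, 1.39 and 0.0 CPM, and which are markers of mesothelial or mural cells. *Wt1* was also at 135 CPM in subgroup 4. The other markers differed between the libraries within subgroup 3. *Upk3b* there was at 0 CPM in WT CD, 116 in WT HFD and 3.30 in KO HFD, and the lymphatic and macrophage marker *Lyve1* at 4.93, 131 and 1.65. *Acta2* there was at 130, 15.3 and 1.65 CPM. Their part in the subgroup and in its differences between libraries was not tested. Subgroup 1 held 31.4% of the cells in WT CD, 50.5% in WT HFD and 45.7% in KO HFD, and subgroup 2 held 32.7%, 27.8% and 17.3%. Subgroup 3 held 19.6%, 12.9% and 18.0% and subgroup 4 held 16.3%, 8.76% and 19.1%. The subgroups were formed with genes that differ between libraries, so these shares are a description.

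Traces of other cell types were checked with markers listed for each. Adipocyte markers (4) and T or NK cell markers (4) were at 0 in the cells of every library. The 5 mesothelial markers summed to 137, 112 and 90.1 CPM, led by *Wt1* at 135 CPM in WT CD, 79.8 in WT HFD and 84.5 in KO HFD, and *Wt1* was also at 117 CPM in the *Agt* set and 104 in the *Fmod* set of FAPs. The more specific *Msln* was at 0 in WT CD and KO HFD. The summed erythroid markers reached 422 CPM in WT HFD, from 1 cell, against 1.66 in WT CD and 4.51 in KO HFD. The 5 mural markers summed to 47.2, 15.5 and 20.3 CPM, led by *Acta2* at 33.1 CPM in WT CD, and the macrophage markers to 52.6, 18.0 and 12.0, led by *Lyz2* in the WT libraries and by *Cd68* in KO HFD, and 1 cell held 79 of the 87 *Lyz2* UMIs in WT CD. *Ptprc*, *Pecam1* and *Pax7* were at 0 by the rule. The 4 lymphatic markers summed to 4.55, 34.9 and 4.88 CPM, with *Lyve1* at 23.9 in WT HFD. Tenocyte markers (5) summed to 23.2, 32.9 and 32.7 CPM, endothelial markers to 8.28, 17.5 and 9.39, and myofiber markers to 18.2, 11.5 and 15.02. B cell, muscle stem cell, neutrophil, Schwann and cycling-cell markers each summed to less than 5 CPM in every library.

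The first comparison asked how the cells of WT mice differed after high-fat feeding. In CPM, 114 of 2939 genes (3.88%) were at least 1.5-fold higher in WT HFD than in WT CD and 54 (1.84%) were at least 1.5-fold lower. In the other FAPs, whose summed depth was greater, 10 of 2874 (0.348%) and 25 (0.870%) passed. The balance depended on scaling. The median gene stood at a log2 ratio of 0.09, and with TMM factors the counts were 70 higher and 82 lower, with DESeq2 size factors 73 and 78. Of the 168 genes past the fold, 5 had most of their UMIs in 1 cell. A gene was compared when it reached 50 CPM in either library, so some list genes entered only through the library where they were high, and the counts of list genes below are a description and no support for a list.

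*Angptl4* and *Cpt1a*, genes of fatty acid use, were higher after high-fat feeding. *Angptl4*, a secreted inhibitor of lipoprotein lipase that fatty acids are known to induce, was at 17.0 CPM in WT CD and 74.8 in WT HFD, a log2 ratio of 2.14 [1.63 to 2.68], and at 61.2 in KO HFD. Both high-fat libraries lay above WT CD, and *Angptl4* was found in 13.5% of cells in WT CD, 39.7% in WT HFD and 34.2% in KO HFD, against 3.87% of macrophages. In the other FAPs its log2 ratio was 1.97 [1.75 to 2.20]. *Cpt1a*, which admits fatty acids to mitochondria, was at 29.0, 58.4 and 59.3 CPM. Of 12 fatty-acid response genes only 4 reached the limit for comparison. *Angptl4*, *Cpt1a* and *Fabp4* did so through WT HFD alone of the WT libraries, and *Acadl* was at a log2 ratio of 0.08. For *Fabp4*, 1 cell held 75 of 148 UMIs in WT HFD. Of 4 sterol and lipid synthesis genes 2 were lower, against 1.84% of all genes. *Fdps*, of the isoprenoid pathway, was at 65.8, 32.9 and 37.2 CPM, and the desaturase gene *Scd2* at 135, 70.9 and 70.6. *Acly* and *Scd1* did not pass the fold, at log2 ratios of -0.51 and -0.21.

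Some matrix genes were higher, while most collagens, elastic fibre genes and proteoglycans did not pass the fold. Of 10 extracellular matrix genes that the study drew from these libraries, 7 were at least 1.5-fold higher (3.88% of all genes were) and none lower (1.84%), with a median log2 ratio of 0.76, and their choice on the same samples makes this no independent evidence. The basement membrane collagen *Col4a1* was at 302 CPM in WT CD, 577 in WT HFD and 498 in KO HFD, and *Col4a2* at 113, 213 and 194. *Fbn1* (fibrillin 1) was at 625, 1131 and 988 CPM, the aggrecanase *Adamts5* at 173, 321 and 222, and *Fn1* (fibronectin) at 812, 1485 and 1400. WT CD was the low library for each of these genes. *Timp1* was at 86.9 CPM in WT CD and 247 in WT HFD, a log2 ratio of 1.51 [1.27 to 1.75], against 1.20 [1.06 to 1.34] in the other FAPs. *Timp1* was higher in WT HFD than in WT CD in subgroups 1 (132 against 62.5 CPM), 2 (83.4 against 35.1) and 3 (974 against 217), and stood at 1 UMI against 7 in subgroup 4. Over all 14 collagens 3 were higher, against 3.88% of all genes, *Col4a1*, *Col4a2* and *Col5a3*, and *Col12a1* was lower at a log2 ratio of -0.69, but by less than 1.5-fold with the subgroups weighted alike (96.4 against 132 CPM). The fibrillar collagens *Col1a1* and *Col3a1* were at -0.06 and 0.28. *Fbn1* was the 1 of 16 elastic fibre genes past the fold, and none of 6 small leucine-rich proteoglycans was, which for lists of this size is near the shares over all genes.

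*Wnt4*, *Dkk3* and *Rspo1* were lower in WT HFD. *Wnt4* had a log2 ratio of -2.02 [-2.57 to -1.51], against -0.87 [-1.14 to -0.61] in the other FAPs. *Dkk3* had -1.24 [-1.66 to -0.85], against -0.34 [-0.60 to -0.09], and *Rspo1* had -0.84 [-1.13 to -0.55], against -0.35 [-0.51 to -0.19]. WT HFD had fewer cells of subgroup 3, so the levels were also set side by side within it, where *Wnt4* was at 246 CPM [208 to 289] in WT CD, 61.1 [37.3 to 94.3] in WT HFD and 182 [149 to 219] in KO HFD. *Dkk3* there was at 204, 67.2 and 131 CPM, and *Rspo1* at 312, 119 and 213. With the 4 subgroups weighted alike in each library, *Wnt4* had a log2 ratio of -1.34 and *Dkk3* of -0.92. *Rspo1* was then at 140 CPM in WT CD and 97.4 in WT HFD, which is less than 1.5-fold. Outside subgroup 3 *Rspo1* was at 56.7 and 55.9 CPM in subgroup 1, 64.0 and 58.8 in subgroup 2, and 127 and 156 in subgroup 4. *Dkk3* was at 8.72 and 18.0 CPM in subgroup 1, 77.8 and 47.4 in subgroup 2, and 24.8 and 33.9 in subgroup 4, and *Wnt4* at 10.2 and 4.99, 21.3 and 11.4, and 37.2 and 47.4. The differences in these 3 genes were thus largest within subgroup 3. Only 4 of 14 Wnt ligands and enhancers and 3 of 11 genes listed as inhibitors reached the limit for comparison. *Wnt4* and *Dkk3* did so through WT CD alone of the WT libraries. *Wnt5a* and *Dkk2* had log2 ratios of 0.19 and 0.31. Of the 4 receptor genes *Fzd4* was higher at 0.95 (3.88% of all genes were), with *Ryk* at 0.37, *Lrp6* at 0.20 and *Fzd2* at -0.25. Subgroup 3 held 25 cells in WT HFD, where *Upk3b* and *Lyve1* were also high, and the part of its makeup in these differences was not tested.

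Other genes with large differences fell into several groups. *Bmyc*, a Myc relative, was at 348 CPM in WT CD, 106 in WT HFD and 175 in KO HFD, and was lower in WT HFD in all 4 subgroups. *Sult1e1*, an estrogen sulfotransferase, was at 183, 70.4 and 63.8 CPM, a log2 ratio of -1.38 [-1.66 to -1.10], and was also lower in the other FAPs (-1.85 [-1.97 to -1.72]). *Dhrs3*, a retinal reductase, was at 173, 72.8 and 87.5 CPM, and *Igfbp3*, an IGF-binding protein, at 156, 66.4 and 62.3. *Igfbp3* marks subgroup 4, whose share was smaller in WT HFD, and its log2 ratio of -1.23 was -0.65 with the subgroups weighted alike. It was lower in WT HFD in subgroups 1, 2 and 4 but not in subgroup 3, at 3.28 CPM in WT CD and 51.9 in WT HFD. *Tagln*, a smooth muscle actin-binding protein, was at 50.1, 8.98 and 3.76 CPM, with 40 of 121 UMIs in 1 cell of WT CD, the library in which *Acta2* was also high. *Pdlim3*, another actin-associated gene, was at 60.8, 17.5 and 27.4 CPM. The heat shock genes *Hspa1b* and *Hspa1a* had log2 ratios of -1.06 and -1.02, against -1.11 and -1.01 in the other FAPs, and 3 of 11 genes of that list were lower, against 1.84% of all genes. None of 13 immediate early genes passed the fold. *Rps27rt*, a near copy of a ribosomal protein gene, was at 55.9, 25.4 and 43.2 CPM, and its reads could be split with its parent gene.

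Among secreted signals, 5 of 9 chemokines and cytokines were higher in WT HFD, against 3.88% of all genes (1.84% were lower), with a median log2 ratio of 0.65, or 0.36 with the subgroups weighted alike. Of the 9, *Csf1* passed at 0.71 and *Cxcl1* did not at 0.48. *Il33*, *Ccl7* and *Ccl19* were lower, at -0.58, -0.54 and -0.54, just short of 1.5-fold. *Ccl11* passed at 0.65, but it marks subgroup 1, which was larger in WT HFD. Within subgroup 1 it was at 276 CPM in WT CD and 259 in WT HFD, and with the subgroups weighted alike at 85.7 and 103, which is less than 1.5-fold. *Cxcl12*, a stromal chemokine, was at 57.9 CPM in WT CD, 119 in WT HFD and 98.4 in KO HFD. *Ccl2*, a monocyte attractant, was at 58.4, 213 and 258 CPM, but 1 cell held 162 of 427 UMIs in WT HFD. *Cxcl13*, a B cell attractant, had 236 UMIs in WT HFD of which 206 were in 1 cell. *Nrep* and *Hmcn1* (hemicentin 1) were at 15.7 and 19.5 CPM in WT CD and at 59.9 and 54.4 in WT HFD. The hemoglobin genes *Hba-a1*, *Hba-a2* and *Hbb-bs* were past the fold through 1 cell of WT HFD. Among TGF-β pathway genes *Tgfb2* was the 1 of 13 past the fold, against 1.84% of all genes lower and 3.88% higher, at a log2 ratio of -0.67 [-0.93 to -0.41]. With the subgroups weighted alike it was at 163 CPM in WT CD and 111 in WT HFD, which is less than 1.5-fold. Of 12 TGF-β target genes *Prg4* (1.06) and *Fn1* (0.87) were higher while *Tgfbi* (-1.05) and *Tagln* (-2.48) were lower, against the same shares of all genes. Of 9 complement genes *Cfb*, *C4b* and *Cd55* were higher (3.88% of all genes) and *C7* was lower (1.84%). With the subgroups weighted alike *Cfb* (45.4 and 67.3 CPM) and *C4b* (80.7 and 112) differed by less than 1.5-fold, as did *Cd55* without its top cell in each library (178 and 262 CPM).

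The second comparison asked how loss of *Thbs1* changed the cells under high-fat diet. *Thbs1* itself was at 149 CPM in WT CD, 113 in WT HFD and 125 in KO HFD, and at 204, 256 and 248 CPM in the other FAPs. The chemistry reads the 3′ end of transcripts, so a count there may persist from a disrupted allele and does not check the genotype. This comparison shares the WT HFD library with the first. Of 2928 genes, 20 (0.683%) were at least 1.5-fold higher in KO HFD and 37 (1.26%) at least 1.5-fold lower. With TMM factors the counts were 27 and 24, and with DESeq2 size factors 24 and 25, and the median gene stood at a log2 ratio of -0.05. The counts moved more with the choice of cells, to 70 and 81 among those that led the next set by at least 0.25 and to 34 and 71 with the subgroups weighted alike. In the other FAPs 19 of 2896 (0.656%) were higher and 5 (0.173%) lower. Of the 57 genes past the fold, 5 had most of their UMIs in 1 cell.

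*Wnt4* was higher in KO HFD than in WT HFD, at 58.2 against 19.0 CPM, a log2 ratio of 1.62 [1.10 to 2.17], against 0.46 [0.19 to 0.75] in the other FAPs. In KO HFD 1 cell held 38 of its 155 UMIs. *Dkk2* had a log2 ratio of -1.04 [-1.44 to -0.65]. Both genes reached the limit for comparison only through the library where they were high, and *Rspo1*, *Wnt11* and *Wnt5a* were at 0.44, 0.42 and -0.11. *Col6a5* was at 239 CPM in WT HFD and 594 in KO HFD, a log2 ratio of 1.31 [1.16 to 1.46], with 313 CPM in WT CD, and the other FAPs stood at 125 and 226 CPM in the same high-fat libraries. *C4b*, a complement component, was at 72.8, 134 and 249 CPM across WT CD, WT HFD and KO HFD. Its difference between the high-fat libraries lay mainly in subgroup 3, at 211 CPM in WT HFD and 735 in KO HFD. *C4b* was at 183 and 155 CPM in subgroup 1, 20.9 and 11.6 in subgroup 2, and 33.9 and 62.7 in subgroup 4. *Plac8* was at 61.3, 61.4 and 106, *Sned1* at 26.1, 43.9 and 75.1, and the nuclear receptor gene *Nr4a2* at 125, 85.3 and 145. With the subgroups weighted alike *Nr4a2* was at 117 CPM in WT HFD and 169 in KO HFD, which is less than 1.5-fold. *Rab9* was at 57.9, 31.4 and 52.9 CPM, and *Bmyc* at 348, 106 and 175. For *Wnt4*, *Rab9* and *Bmyc* the WT HFD library was the lowest of the 3.

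*Timp1* was lower in KO HFD, at 147 against 247 CPM, a log2 ratio of -0.75 [-0.95 to -0.56], against -0.19 [-0.30 to -0.07] in the other FAPs. The difference lay in subgroup 3, where *Timp1* was at 974 CPM in the 25 cells of WT HFD and 299 in KO HFD. In subgroup 1 it was at 132 and 135 CPM, and in subgroup 2 at 83.4 and 99.8. Without its top cell, which held 90 of 496 UMIs, *Timp1* was at 203 CPM in WT HFD, less than 1.5-fold above 147. With the top cell of KO HFD left out too, *Timp1* was at 116 CPM there, and the difference was again past 1.5-fold. *S100a4* was at -0.87 [-1.11 to -0.64], from 185 CPM in WT HFD and 101 in KO HFD. Without the 1 cell that held 126 of its UMIs, it was at 122 CPM in WT HFD, which is less than 1.5-fold above 101. When the top cell of KO HFD was left out too, *S100a4* was at 75.1 CPM there, and the difference was again past 1.5-fold. *Nrep* (-1.11) and *Basp1* (-1.18) were lower as well. *Tmem176a* was at -1.01 but turned to 0.45 among cells that led the next set by at least 0.25, and in subgroup 2 it was at 0 CPM in WT HFD and 23.2 in KO HFD. *Ccn2*, a matricellular TGF-β target, was at -0.65 [-0.81 to -0.49] and was the 1 of 11 target genes past the fold (1.26% of all genes were lower). With the subgroups weighted alike it was at 292 CPM in WT HFD and 233 in KO HFD, which is less than 1.5-fold. *Ccl7* was higher, at 67.4 against 151 CPM, with 93 of 402 UMIs in 1 cell of KO HFD, and its log2 ratio of 1.16 turned to -0.065 when cells were thinned to 3000 UMIs before scoring. *Eif3j1* was lower at -2.15 and *Eif3j2* higher at 1.84, and the other FAPs gave -2.02 and 2.44. These are near-identical paralogs between which reads can be split. *Eif3j1* lies on chromosome 2 (122028546 to 122056598), as does *Thbs1* (118111876 to 118127133). *Fabp4*, *Cxcl13*, *Hba-a1*, *Hba-a2* and *Hbb-bs* were lower too, and for each of them 1 cell held most of the UMIs in WT HFD.

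With 0.683% of all genes higher and 1.26% lower in KO HFD, the counts in lists were small throughout. None of 14 collagens, 16 elastic fibre genes, 6 small leucine-rich proteoglycans, 13 TGF-β pathway genes or 10 of the study's matrix genes passed 1.5-fold in either direction. All 10 of those matrix genes had log2 ratios below 0, from -0.13 for *Col4a2* to -0.53 for *Adamts5*, with a median of -0.27 against -0.05 for all genes, and KO HFD was above WT CD for *Col4a1*, *Fbn1* and *Fn1*. Among the fatty-acid response genes *Angptl4* was at -0.29 [-0.62 to 0.04] and *Cpt1a* at 0.02. Of 13 immediate early and 11 heat shock genes none passed. *Irgm1* was the 1 of 6 interferon response genes past it, at 0.70 (0.683% of all genes were higher), but with the subgroups weighted alike it was at 45.2 CPM in WT HFD and 59.6 in KO HFD, which is less than 1.5-fold. *C4b* was the 1 of 9 complement genes past it, against the same share.

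**Figure D5:**
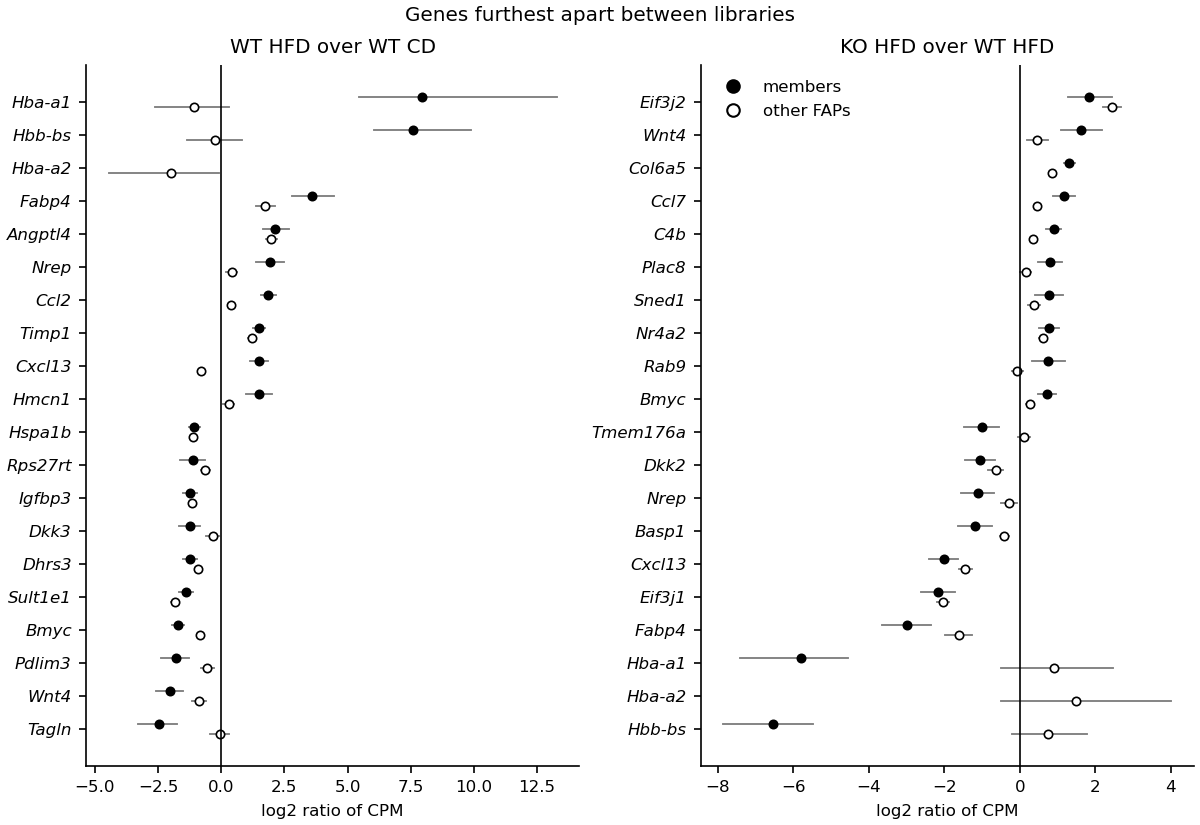
The log2 ratio of CPM between libraries for the genes with the 10 largest differences in each direction, in *Sfrp4* *Spon2* FAPs (filled) and in all other FAPs (open), with intervals for counting error (horizontal lines). *Hba-a2* has no filled point because its count was 0 in WT CD and KO HFD. *Angptl4* and *Igfbp3* lie close together in both, while *Wnt4* and *Nrep* lie further from 0 in *Sfrp4* *Spon2* FAPs.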

How the data were processed

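Single-cell RNA-Seq libraries of diaphragm mononuclear cells (1 per group, 2 mice pooled) were analysed from the deposited files. The authors captured cells with 10x Genomics 3′ v3.1 chemistry and made the UMI counts with Cell Ranger (6.1.1 in the submitters' processing notes) on mm10 (GRCm38), and these deposited counts are whole numbers without normalization over 32285 genes. By the study's account, cells for all libraries were prepared within 1 day.

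All barcodes were kept and doublets were not removed. Scrublet (in scanpy 1.11.5, expected rate 0.06), run as an alternative, marked 52, 41 and 58 barcodes, among them 5 of the cells described. For scores, counts were scaled to 10000 per cell, log-transformed, and standardized over FAPs. UMIs of the chosen cells were then summed per library as CPM. Between libraries, a gene was compared at 50 CPM or more in either of them. Against other FAPs, genes needed a mean of 50 CPM in the higher class, and ratios were taken within libraries. A count of 0 was set to a floor of 3 counts. The 28 set genes were left out. A list gene was measured where it met these limits. Named genes were the 4 set genes, *Thbs1*, list members, the 20 highest and 10 lowest against other FAPs, and the 10 largest differences each way between libraries. Members, lists and sets were chosen with earlier results of these data known. Subgroups used k-means (20 starts) on 10 principal components of 1500 variable genes.

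The count of changed genes was tested on simulated data, which checks the calculation and is no test between groups. Alternatives were other scalings (edgeR 4.0.16, DESeq2 1.42.0), filters, scoring and membership rules. Python 3.11.15, numpy 2.4.6, scipy 1.17.1, scikit-learn 1.9.0 and R 4.3.3 were used. Positions are from GENCODE on GRCm38. Intervals are exact Poisson, exact binomial (Clopper-Pearson) or, for ratios, from the exact binomial.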

Additional observations from a re-analysis of the deposited data

Results flagged for a closer look

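*Cxcl13*, which encodes a B cell attractant, differed in opposite directions between WT HFD and WT CD in the 2 classes of cells. Its log2 ratio was 1.49 in the *Sfrp4* *Spon2* FAPs and -0.80 in the other FAPs, and the difference was not tested. In WT HFD 1 cell held 206 of the 236 UMIs in the *Sfrp4* *Spon2* FAPs, and in WT CD 1 cell held 82 of 101.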

How the results depend on the processing

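No paired analysis was possible because each group was 1 library, so no replicate could be left out and no value rests on replicate spread. Counts of genes are given for WT HFD over WT CD (114 higher, 54 lower), KO HFD over WT HFD (20 higher, 37 lower) and the cells over other FAPs (3 higher, 7 lower). Cells thinned to 3000 UMIs before scoring gave 72 higher with diet, 24 lower in the knockout, and 0 and 3 against other FAPs. A lead of at least 0.25 gave 86 lower with diet, 70 and 81 in the knockout, and 7 higher against other FAPs. TMM factors gave 70 and 82 with diet and 24 lower in the knockout, and DESeq2 size factors 73 higher with diet. With 10 UMIs and no CPM filter the counts were 1246 and 963, 897 and 969, and 160 and 77. At 100 CPM they were 50 and 25, and 8 and 10. Against other FAPs, 1.5-fold gave 25 and 33, and WT libraries alone 6 higher. Weighting the 4 subgroups alike, chosen after seeing the data, gave 34 and 71 in the knockout. The share of FAPs was 2.34 points higher in KO HFD than in WT HFD, and 0.237 points higher with scores standardized within each library. The other 70 values for counts and shares stayed within 1.5 times or within counting error. Among values for single genes 451 stayed the same by that limit, 50 moved past it and 11 turned sign. Thinning moved 13 of them and the longer lead 9. Signs turned for 5 single genes. *Hbb-bs* went to -0.74 (diet) and 1.57 (knockout) without set genes that differ between libraries, and in the knockout to 1.26 with thinning and 1.91 without its top cell in each library. *Hba-a1* in the knockout went to 0.67 with thinning and 1.59 without its top cell, *Ccl7* to -0.065 with thinning, *Tmem176a* to 0.45 with the longer lead, and *Cxcl13* to -3.43 (diet) and 2.65 (knockout) with the longer lead and to 0.21 (knockout) without its top cell. Leaving out top cells was added after seeing the data. The cause was not tested for the changes under thinning, lead and standardization. Depth limits genes with few UMIs, which the minimum of 50 CPM left out.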
